A study of Mus musculus with 10 samples.

Results

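10 genes of mucosal defence at the gut surface were described in organoids that carry an inflammatory stimulus: Dmbt1, Pigr, Lypd8, Lcn2, Saa1, Saa3, S100a8, S100a9, Pglyrp1 and Nod2. They are 10 of 19505 genes measured, taken by the symbol that the array annotation gives, and each had 1 probe set. They were chosen with the pegtarazimod and vehicle values of these same arrays known, so their differences are given as descriptions, without p-values. The organoids are BALB/c mouse small intestinal epithelium grown in Matrigel domes with IntestiCult medium. All 10 cultures received 20 ng/ml of recombinant murine TNF for 48 h. The 5 pegtarazimod cultures also received 5 mg/ml of pegtarazimod, a peptide joined to polyethylene glycol (PEG) that inhibits classical complement activation and myeloperoxidase, and the 5 vehicle cultures received 2.625 mM PEG. The series' design calls the 5 cultures of a group biological replicates without saying whether they came from separate animals, lines or passages, so the spread between arrays may be partly technical. Cultures without TNF were not analysed here, so no value is set against an unstimulated state. Organoids of this kind hold epithelium without the immune cells and bacteria of the gut wall.

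Most of these genes encode proteins that the epithelium or recruited leukocytes release to keep microbes away from the gut surface. Some bind bacteria or carry antibody into the lumen, some withhold iron, zinc or manganese from microbes, and some recognise fragments of the bacterial cell wall. Several are known to be switched on by inflammatory signals, among them TNF, interleukin 17 and interleukin 22. The name of the group holds only in part, since Nod2 is a receptor inside the cell and Pigr is a membrane receptor whose outer part is released.

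RNA was measured on single-colour arrays as log2 expression, and 1 unit is a 2-fold difference. The median gene of an array stood between 5.6 and 5.66, the lower quartile between 3.84 and 3.90, and the upper quartile between 7.35 and 7.44. These quartiles serve here as a scale for how bright a gene was, and the number of arrays limits the precision. Of the 11 epithelial markers, 10 were above the upper quartile on all 10 arrays, and their mean level was 10.16 to 10.27 in pegtarazimod arrays and 9.98 to 10.07 in vehicle arrays. Replicates 1 and 2 stood apart from replicates 3 to 5 in both groups along the first principal component of the values left after the group means are removed, which held 33.4% of that variance. The labels list the samples in those 2 sets, and do not say what differs between them. Differences within each set are therefore given beside the pooled ones for the 10 genes and most other named genes.

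Across all genes, 954 passed an adjusted p of 0.05 in limma with Benjamini-Hochberg adjustment, which is 4.89% of those tested. The 488 higher with pegtarazimod make 2.5%, and the 466 lower make 2.39%. In 6.71% of genes the pegtarazimod and vehicle arrays did not overlap. Of the 10 defence genes, chosen by their values in this contrast, 4 were past that threshold: Dmbt1, Pigr and Lypd8 were higher and Pglyrp1 was lower. The groups did not overlap for Dmbt1, Pigr and Lypd8. The median difference over the 10 genes was 0.02 on the log2 scale, and over all genes it was 0.00. Nothing is read from these shares, because the same values chose the genes.

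Dmbt1, Pigr and Lypd8 RNA was higher with pegtarazimod. Dmbt1 encodes a large secreted glycoprotein of scavenger receptor cysteine-rich and CUB domains that binds bacteria and mucosal ligands. Dmbt1 stood at 11.79, 11.88, 11.42, 11.53 and 11.36 in pegtarazimod replicates 1 to 5, against 10.11, 10.29, 7.95, 8.68 and 8.13 in vehicle replicates 1 to 5. The lowest pegtarazimod array was 1.06 above the highest vehicle array. The mean was 11.60 ± 0.23 with pegtarazimod and 9.03 ± 1.10 with vehicle (SD, n = 5 each), a difference of 2.56 ± 0.39 (SE), or 5.91-fold higher. Within replicates 1 and 2 the difference was 1.63, or 3.10-fold, and within replicates 3 to 5 it was 3.18, or 9.08-fold.

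The spread of Dmbt1 was not alike in the groups. The pegtarazimod arrays spanned 0.52 and the vehicle arrays 2.34, and the vehicle SD was 4.81 times the pegtarazimod SD. Over all genes that ratio had a median of 0.84. The vehicle SD of Dmbt1 was the 8th highest of 19505 genes. The vehicle arrays split by set: vehicle replicates 1 and 2 averaged 1.95 above vehicle replicates 3 to 5, whereas the gap was 0.40 between the pegtarazimod sets. Leaving out any 1 array gave differences of 2.29 to 2.88, and the gene stayed past the threshold each time.

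Pigr and Lypd8 differed in the same direction by far smaller amounts. Pigr encodes the polymeric immunoglobulin receptor, which carries dimeric IgA across the epithelium and releases secretory component. Pigr stood at 12.23, 12.25, 12.24, 12.14 and 12.05 in pegtarazimod arrays, against 11.98, 11.96, 11.73, 11.74 and 11.71 in vehicle arrays. Every pegtarazimod array was above every vehicle array, but the gap was 0.06. The means were 12.18 ± 0.09 with pegtarazimod and 11.83 ± 0.14 with vehicle (SD, n = 5 each), a difference of 0.36 ± 0.09 (SE), or 1.28-fold, with 0.27 within replicates 1 and 2 and 0.42 within replicates 3 to 5. Pigr lay between the 99.8th and 99.97th percentile of every array, and whether differences are compressed so near the top of the scale was not tested.

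Lypd8 encodes a GPI-anchored protein of the Ly6 and uPAR family that is shed and binds flagellated bacteria in the mouse colon. Lypd8 stood at 9.77, 9.79, 9.60, 9.69 and 9.61 with pegtarazimod, against 9.46, 9.35, 9.09, 9.29 and 9.22 with vehicle. The groups again did not overlap, with 0.14 between the nearest arrays. The means were 9.69 ± 0.09 with pegtarazimod and 9.28 ± 0.14 with vehicle (SD, n = 5 each), a difference of 0.41 ± 0.09 (SE), or 1.33-fold. The sets gave close values, 0.38 within replicates 1 and 2 and 0.43 within replicates 3 to 5. Within replicates 1 and 2 neither Pigr nor Lypd8 was past the threshold, and within replicates 3 to 5 both were. Neither gene kept its place past the threshold when vehicle replicate 3, 4 or 5 or pegtarazimod replicate 1 or 2 was left out. Pigr also lost it without pegtarazimod replicate 3. Leaving out any 1 array gave differences of 0.33 to 0.40 for Pigr and 0.36 to 0.46 for Lypd8.

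**Figure D1:**
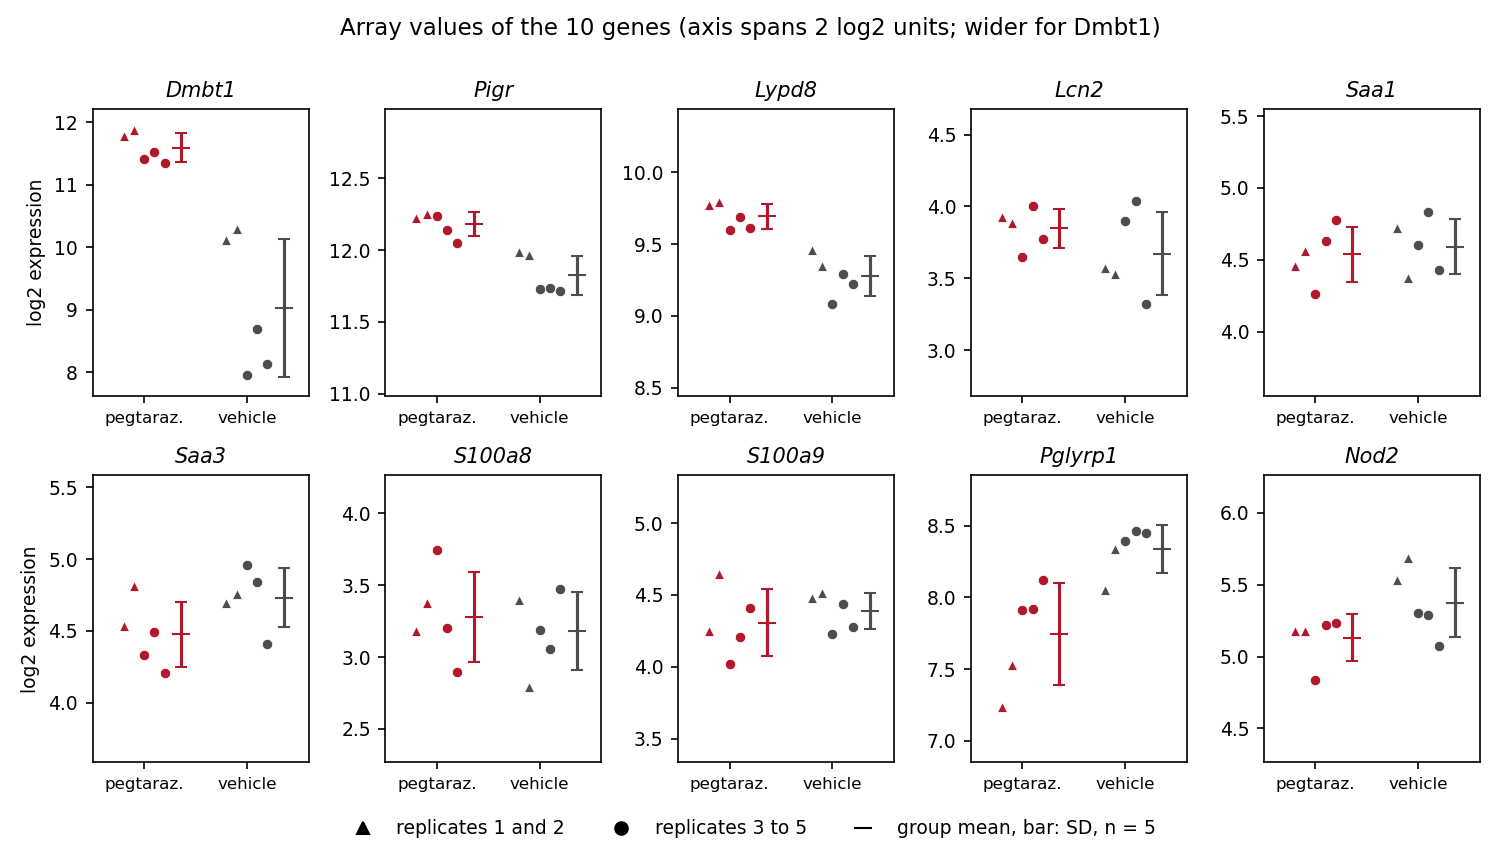
Log2 expression of the 10 defence genes on every array, pegtarazimod left of vehicle, with triangles for replicates 1 and 2, circles for replicates 3 to 5, and a dash with its bar at each group mean and SD (n = 5). Each axis spans 2 log2 units, except the wider one of Dmbt1. Dmbt1 has the widest gap between the groups, with all pegtarazimod arrays at 11.36 or above and all vehicle arrays at 10.29 or below.

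Promoter sequence is shown for 5 of the genes, so that higher (Pigr, Lypd8), lower (Pglyrp1) and not called (Lcn2, Saa3) genes can be read side by side, as the 250 bases before the RefSeq start (GRCm38.p6), each read 5′ to 3′ on the gene's own strand. The RefSeq table used held 9 of the 10 genes, and Dmbt1 was the one without an entry. Both strands were searched for 4 motifs: the E-box CACGTG, the STAT motif TTCNNNGAA, the C/EBP motif TTGCNNAA and a kB consensus. Of 32851 promoters of this length, 6.02% held the E-box, 7.02% the STAT motif, 9.56% the C/EBP motif and 3.90% the kB consensus. Capitals mark every match, and a stretch without capitals holds none of the 4. For Pigr (chr1:130826434-130826683, plus strand) the capitals mark an E-box at -71 to -66 from the start, and for Lypd8 (chr11:58378782-58379031, plus strand, the first of its entries) nothing was found.
Pigr: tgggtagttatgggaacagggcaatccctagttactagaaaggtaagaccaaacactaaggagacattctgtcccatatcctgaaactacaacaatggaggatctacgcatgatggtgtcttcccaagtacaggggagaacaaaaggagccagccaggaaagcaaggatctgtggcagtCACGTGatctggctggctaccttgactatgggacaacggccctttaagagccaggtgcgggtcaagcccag
Lypd8: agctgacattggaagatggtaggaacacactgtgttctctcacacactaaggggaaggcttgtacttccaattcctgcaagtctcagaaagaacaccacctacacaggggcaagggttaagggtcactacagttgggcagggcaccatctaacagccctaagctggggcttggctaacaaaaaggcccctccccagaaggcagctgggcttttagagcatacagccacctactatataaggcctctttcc
For Lcn2 (chr2:32387740-32387989, minus strand) the capitals mark a C/EBP match at -216 to -209, and for Saa3 (chr7:46715677-46715926, minus strand) one at -99 to -92 that reads TTGCATAA on the opposite strand.
Lcn2: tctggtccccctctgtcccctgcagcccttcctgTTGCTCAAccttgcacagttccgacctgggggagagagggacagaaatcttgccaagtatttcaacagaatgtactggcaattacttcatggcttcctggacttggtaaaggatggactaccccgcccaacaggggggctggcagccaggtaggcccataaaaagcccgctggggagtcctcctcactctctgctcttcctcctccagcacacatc
Saa3: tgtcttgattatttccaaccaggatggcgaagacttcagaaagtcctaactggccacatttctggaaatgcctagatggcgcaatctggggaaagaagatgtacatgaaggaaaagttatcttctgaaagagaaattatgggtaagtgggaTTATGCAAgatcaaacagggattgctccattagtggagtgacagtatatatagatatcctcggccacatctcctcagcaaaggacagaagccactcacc
For Pglyrp1 (chr7:18884440-18884689, plus strand) the capitals mark a kB match at -93 to -84 that reads GGGACTTTCC on the opposite strand.
Pglyrp1: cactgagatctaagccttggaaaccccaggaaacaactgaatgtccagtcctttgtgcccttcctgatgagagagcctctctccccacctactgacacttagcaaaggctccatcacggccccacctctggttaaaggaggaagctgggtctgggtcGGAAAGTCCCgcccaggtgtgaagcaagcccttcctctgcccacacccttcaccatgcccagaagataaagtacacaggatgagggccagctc
The C/EBP motif was found in 4 of the 9 promoters (Lcn2, Saa1, Saa3 and S100a9), the E-box in 1, the kB consensus in 1 and the STAT motif in 0. A match is a run of letters and not a measured binding site.

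The 5 genes of metal withholding and the acute phase were dim in both groups, and none passed the threshold. Lcn2 encodes lipocalin 2, which binds bacterial siderophores and so keeps iron from them. Lcn2 stood at 3.93, 3.88, 3.65, 4.0 and 3.77 in pegtarazimod arrays, against 3.57, 3.53, 3.90, 4.04 and 3.32 in vehicle arrays. The groups overlapped, and 5 of the 10 values were under their array's lower quartile. The means were 3.85 ± 0.14 with pegtarazimod and 3.67 ± 0.29 with vehicle (SD, n = 5 each), a difference of 0.18 ± 0.13 (SE), and it was 0.35 within replicates 1 and 2 and 0.06 within replicates 3 to 5.

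Saa1 and Saa3 encode serum amyloid A proteins, acute-phase carriers of lipid and retinol. Saa1 stood at 4.45, 4.56, 4.26, 4.63 and 4.78 with pegtarazimod, against 4.72, 4.37, 4.6, 4.84 and 4.43 with vehicle. Saa3 stood at 4.53, 4.81, 4.33, 4.49 and 4.21 with pegtarazimod, against 4.69, 4.76, 4.96, 4.84 and 4.41 with vehicle. Both genes overlapped between the groups and lay under the median of every array. The Saa1 means were 4.54 ± 0.19 with pegtarazimod and 4.59 ± 0.19 with vehicle, a difference of -0.06 ± 0.12 (SE). The Saa3 means were 4.48 ± 0.23 with pegtarazimod and 4.73 ± 0.21 with vehicle (SD, n = 5 each), a difference of -0.26 ± 0.13 (SE). For Saa3 it was -0.05 within replicates 1 and 2 and -0.39 within replicates 3 to 5, whereas for Saa1 it was -0.04 and -0.07 in those sets. Saa1 has a near-identical neighbour, Saa2, and array probes can share signal between such copies. Saa2 stood at 4.6 ± 0.06 with pegtarazimod and 4.53 ± 0.12 with vehicle (SD, n = 5 each), a difference of 0.07 ± 0.09 (SE).

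S100a8 and S100a9 encode the subunits of calprotectin, which binds zinc and manganese and is abundant in neutrophils. S100a8 stood at 3.18, 3.38, 3.74, 3.20 and 2.89 with pegtarazimod, against 3.40, 2.79, 3.19, 3.06 and 3.47 with vehicle. S100a9 stood at 4.25, 4.65, 4.02, 4.21 and 4.41 with pegtarazimod, against 4.48, 4.52, 4.23, 4.44 and 4.28 with vehicle. S100a8 was under the lower quartile on all 10 arrays, S100a9 was under the median on all 10, and the groups overlapped for both. The differences were 0.10 ± 0.16 (SE) for S100a8 and -0.08 ± 0.12 (SE) for S100a9. Within replicates 1 and 2 they were 0.19 and -0.05, and within replicates 3 to 5 they were 0.04 and -0.10. The S100a8 means were 3.28 ± 0.31 with pegtarazimod and 3.18 ± 0.27 with vehicle, and the S100a9 means were 4.31 ± 0.23 with pegtarazimod and 4.39 ± 0.13 with vehicle (SD, n = 5 each). The 12 neutrophil markers measured averaged 4.0 to 4.22 in pegtarazimod arrays and 4.04 to 4.15 in vehicle arrays, with 4 of them under the lower quartile on all 10 arrays and 0 past the limma threshold or at an unadjusted p under 0.05. At values this low, background and true signal cannot be separated from these files, so no statement is made on whether these 5 genes were expressed.

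The genes that sense the bacterial cell wall had lower means with pegtarazimod. Pglyrp1 encodes a secreted protein that binds peptidoglycan. Pglyrp1 stood at 7.24, 7.53, 7.91, 7.92 and 8.12 in pegtarazimod arrays, against 8.05, 8.33, 8.39, 8.46 and 8.45 in vehicle arrays. The groups overlapped by 0.07, since pegtarazimod replicate 5 was above vehicle replicate 1. The means were 7.74 ± 0.36 with pegtarazimod and 8.34 ± 0.17 with vehicle (SD, n = 5 each), a difference of -0.59 ± 0.15 (SE), or 1.51-fold lower. It was -0.81 within replicates 1 and 2 and -0.45 within replicates 3 to 5, and replicates 1 and 2 were the lowest arrays of their own group in both conditions. Pglyrp1 was past the threshold within replicates 1 and 2 but not within replicates 3 to 5. The gene was not past the threshold without vehicle replicate 2, 3, 4 or 5 or without pegtarazimod replicate 1 or 2. Its differences were -0.69 to -0.47 when any 1 array was left out.

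Nod2 encodes the intracellular receptor for muramyl dipeptide, a fragment of peptidoglycan. Nod2 stood at 5.18, 5.18, 4.84, 5.22 and 5.23 in pegtarazimod arrays, against 5.54, 5.69, 5.30, 5.29 and 5.07 in vehicle arrays. Vehicle replicate 5 was below 4 of the pegtarazimod arrays, so the groups overlapped. The means were 5.13 ± 0.16 with pegtarazimod and 5.38 ± 0.24 with vehicle (SD, n = 5 each), and the difference of -0.25 ± 0.12 (SE) was not past the threshold. It was -0.43 within replicates 1 and 2 and -0.12 within replicates 3 to 5.

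**Figure D2:**
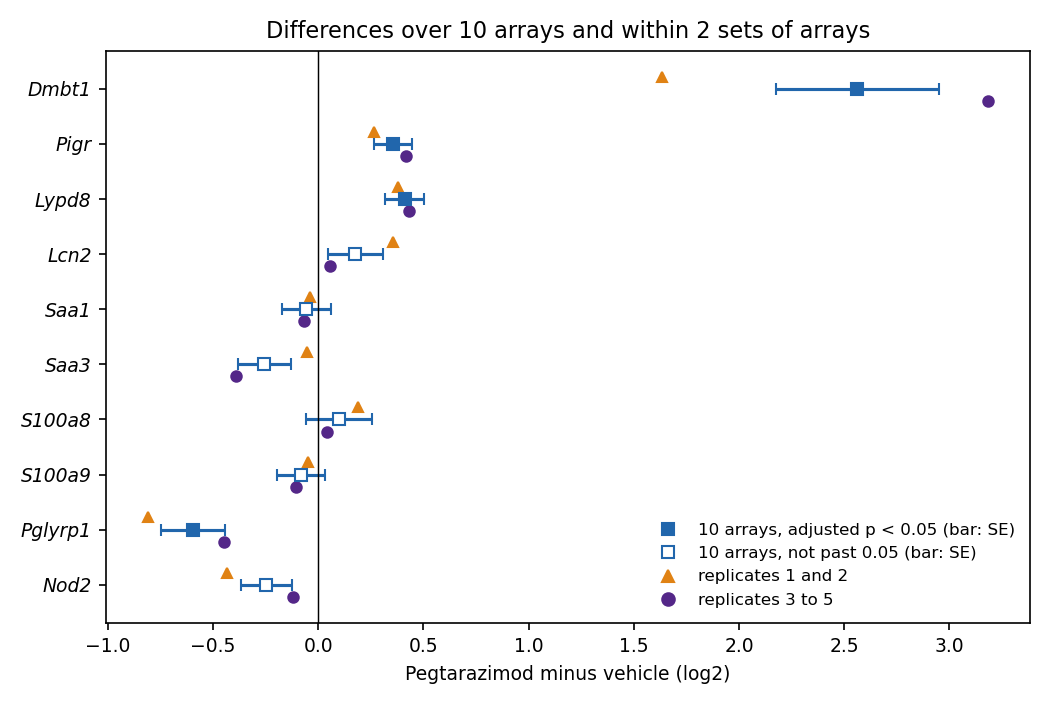
Difference of each defence gene between pegtarazimod and vehicle in log2 units, over 10 arrays with its SE (squares, filled where past an adjusted p of 0.05), within replicates 1 and 2 (triangles) and within replicates 3 to 5 (circles). Dmbt1 lies at 2.56, apart from the other 9 genes, which lie between -0.59 and 0.41.

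The array profile of Dmbt1 was set against that of every other gene by Pearson correlation over the 10 arrays. These points share their treatment group and array set, so the coefficients describe these arrays and carry no p-value. The 5 most similar genes were Ces2g (r = 0.989), a carboxylesterase, Erlin1 (0.987), a protein of the endoplasmic reticulum membrane, Ceacam18 (0.985), Gcnt4 (0.982), an enzyme that makes branches of O-glycans, and Clmn (0.979). Their differences were 1.15, 0.67, 1.14, 1.17 and 0.55, all higher with pegtarazimod. In the same gene order they were 0.85, 0.48, 0.86, 0.94 and 0.42 within replicates 1 and 2, and 1.34, 0.80, 1.33, 1.32 and 0.64 within replicates 3 to 5, so each was larger within replicates 3 to 5. After the group means were removed, Ces2g (0.966), Ceacam18 (0.949) and Erlin1 (0.948) were still among the 5 most similar, so they shared the split between the array sets as well. Among the defence genes, Pigr had 0.970 over all arrays and 0.875 with group means removed, and Lypd8 had 0.961 and 0.827. Nod2 had -0.18 over all arrays but 0.76 once group means were removed, since it was higher in vehicle replicates 1 and 2 by 0.39 while its group difference ran against that of Dmbt1. Pglyrp1 had -0.81 and -0.46.

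**Figure D3:**
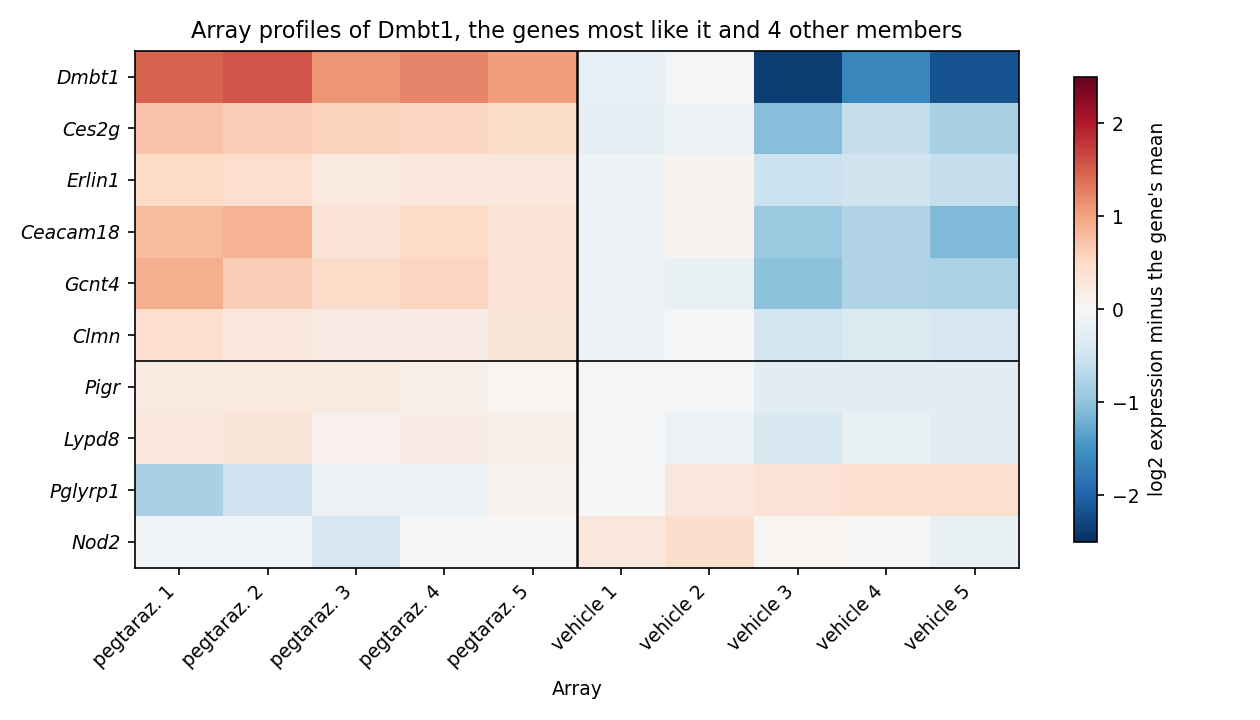
Log2 expression minus each gene's mean over the 10 arrays, as colour, for Dmbt1, the 5 genes with the highest Pearson correlation to it, and 4 other defence genes, with pegtarazimod arrays left of the vertical line and vehicle arrays right of it. Vehicle replicates 3 to 5 are the darkest blue for Dmbt1, and its 5 most similar genes follow the same split at a smaller scale.

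Of the 191 other genes measured in 10 lists of related pathways, 17 passed the threshold, with 10 higher and 7 lower with pegtarazimod. They make 8.90%, against 4.89% over all genes. Nothing is read from that share, because the lists were chosen with earlier results of these data known. The median difference over the 191 genes was 0.01. In the list of secreted antimicrobial proteins, 3 of 20 rose and 2 fell, with a median of 0.02. Zg16, a goblet cell lectin that binds Gram-positive bacteria, rose by 2.15 ± 0.30 (SE, adjusted p = 0.00149), with 7.23 ± 0.76 in pegtarazimod arrays and 5.07 ± 0.40 in vehicle arrays (SD, n = 5 each). Lgals4, a galectin of the epithelium, rose by 0.67 ± 0.08 (adjusted p = 0.000537), and Ang4, a Paneth cell ribonuclease, fell by 1.39 ± 0.25 (adjusted p = 0.00720). Within replicates 1 and 2 and within replicates 3 to 5, Zg16 differed by 2.86 and 1.68, Lgals4 by 0.69 and 0.66, and Ang4 by -1.55 and -1.29. Ang4 was under the lower quartile on 2 pegtarazimod arrays (lowest value 3.67), so the size of its fall is uncertain. The other calls were Reg3b, a lectin that binds bacteria, at 0.65 (adjusted p = 0.0290), and Pla2g2a, a secreted phospholipase, at -2.38 (adjusted p = 0.0283), both named after their values were seen. Within those sets Reg3b differed by 0.74 and 0.60 and Pla2g2a by -2.79 and -2.10. Neither set value of Reg3b was past the threshold in limma (adjusted p up to 0.148). The Reg3b call was lost without vehicle replicate 2, 4 or 5 or without pegtarazimod replicate 1, 3 or 5 (differences of 0.53 to 0.75 and adjusted p up to 0.0737 with any 1 array left out). The Pla2g2a call was lost without vehicle replicate 3, 4 or 5 or without pegtarazimod replicate 1 or 2 (differences of -2.67 to -1.97 and adjusted p up to 0.0827 with any 1 array left out). It was also lost with an intensity trend and robust priors in limma (adjusted p = 0.109).

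In the scavenger receptor family and ligands of Dmbt1, 1 of 18 rose and 0 fell, with a median of 0.04. It was Prss12, a serine protease with scavenger receptor domains, at 0.93 ± 0.12 (SE, adjusted p = 0.00101), with 0.98 within replicates 1 and 2 and 0.90 within replicates 3 to 5. In the list on transport by the polymeric immunoglobulin receptor, 2 of 15 rose and 0 fell, with a median of 0.02. They were Tnfsf13b, the B cell survival factor BAFF, at 0.67 ± 0.16 (adjusted p = 0.0274), and Rab17, a GTPase of epithelial transcytosis, at 0.50 ± 0.12 (adjusted p = 0.0277). Tnfsf13b overlapped between the groups, and its difference was 0.20 within replicates 1 and 2 (adjusted p = 0.687) against 0.97 within replicates 3 to 5. For Rab17 the set values were 0.68 within replicates 1 and 2 and 0.37 within replicates 3 to 5 (adjusted p = 0.231). The Tnfsf13b call was lost without vehicle replicate 3 or 4 or without pegtarazimod replicate 1, 3 or 5, with adjusted p up to 0.0825. The Rab17 call was lost without vehicle replicate 2 or 3 or without pegtarazimod replicate 1 or 2, with adjusted p up to 0.0842. In the Ly6 and uPAR family that holds Lypd8, 0 of 26 genes passed in limma and 4 had an unadjusted p under 0.05, and the smallest p was that of Ly6c2, with a difference of -0.31 ± 0.10 (adjusted p = 0.0964), dim on every array, and set values of -0.22 (replicates 1 and 2) and -0.37 (replicates 3 to 5).

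In the serum amyloid and acute-phase list, Il6st, the shared receptor chain of the interleukin 6 family, fell by 0.97 ± 0.14 (SE, adjusted p = 0.00181), and Fga, a fibrinogen chain, rose by 0.48 ± 0.12 (adjusted p = 0.0285), while the other 17 of 19 genes did not pass. The set values of Il6st were -1.05 and -0.93. Fga was dim and overlapped between the groups, with 0.22 within replicates 1 and 2 (adjusted p = 0.576) and 0.66 within replicates 3 to 5, and its call was lost without vehicle replicate 2, 3, 4 or 5 or without pegtarazimod replicate 1 or 5, with adjusted p up to 0.0794. In the S100 family 0 of 19 passed in limma and 2 had an unadjusted p under 0.05, and the smallest p was that of S100a10 at 0.30 ± 0.11 (adjusted p = 0.156), with set values of 0.55 and 0.13. In the siderophore and iron list 0 of 11 passed in limma and 2 had an unadjusted p under 0.05, and the smallest p was that of Tfrc, the transferrin receptor, at -0.32 ± 0.10 (adjusted p = 0.0938), with set values of -0.26 and -0.37.

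Among peptidoglycan recognition and NOD pathway genes, 1 of 26 rose and 2 fell, with a median of -0.03. Slc15a1, a peptide transporter that also takes up muramyl dipeptide, rose by 1.27 ± 0.21 (SE, adjusted p = 0.00412). Tnfaip3, the ubiquitin-editing brake on NF-kB known as A20, fell by 1.45 ± 0.20 (adjusted p = 0.00142), with 7.56 ± 0.49 in pegtarazimod arrays and 9.01 ± 0.24 in vehicle arrays (SD, n = 5 each). Birc3, a ubiquitin ligase of NOD and TNF receptor signalling, fell by 0.53 ± 0.12 (adjusted p = 0.0194), a call that was lost without vehicle replicate 5 (adjusted p = 0.0513). Within replicates 1 and 2 and within replicates 3 to 5, Slc15a1 differed by 1.49 and 1.12, Tnfaip3 by -1.69 and -1.29, and Birc3 by -0.64 and -0.46, the last of which was not past the threshold (adjusted p = 0.0893). In the Toll-like receptor list 0 of 19 passed in limma and 2 had an unadjusted p under 0.05, and the smallest p was that of Tlr2 at -0.44 ± 0.14 (adjusted p = 0.0949), with set values of -0.14 and -0.64.

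In the interleukin 17 and 22 response list, 3 of 24 rose and 2 fell, with a median of -0.07. Nox1, an epithelial NADPH oxidase, fell by 3.24 ± 0.36 (SE, adjusted p = 0.000307), with 3.27 ± 0.39 in pegtarazimod arrays and 6.51 ± 0.97 in vehicle arrays (SD, n = 5 each). The Nox1 difference was -2.51 within replicates 1 and 2 and -3.73 within replicates 3 to 5. On all 5 pegtarazimod arrays Nox1 was under the lower quartile (highest value 3.71), so the size of its fall is uncertain. The receptor chains Il10rb and Il17rc rose by 0.61 ± 0.09 each (adjusted p = 0.00248 and 0.00256), with 0.68 and 0.71 within replicates 1 and 2 and 0.56 and 0.55 within replicates 3 to 5. The remaining calls were Reg3b, given above, and Nos2, the inducible nitric oxide synthase, at -1.39 (adjusted p = 0.0171), named after its value was seen. Nos2 differed by -1.69 within replicates 1 and 2 and by -1.19 within replicates 3 to 5, and its call was lost with an intensity trend and robust priors in limma (adjusted p = 0.0547). Lcn2, which this pathway is known to induce, is among the 10 genes and did not pass.

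**Figure D4:**
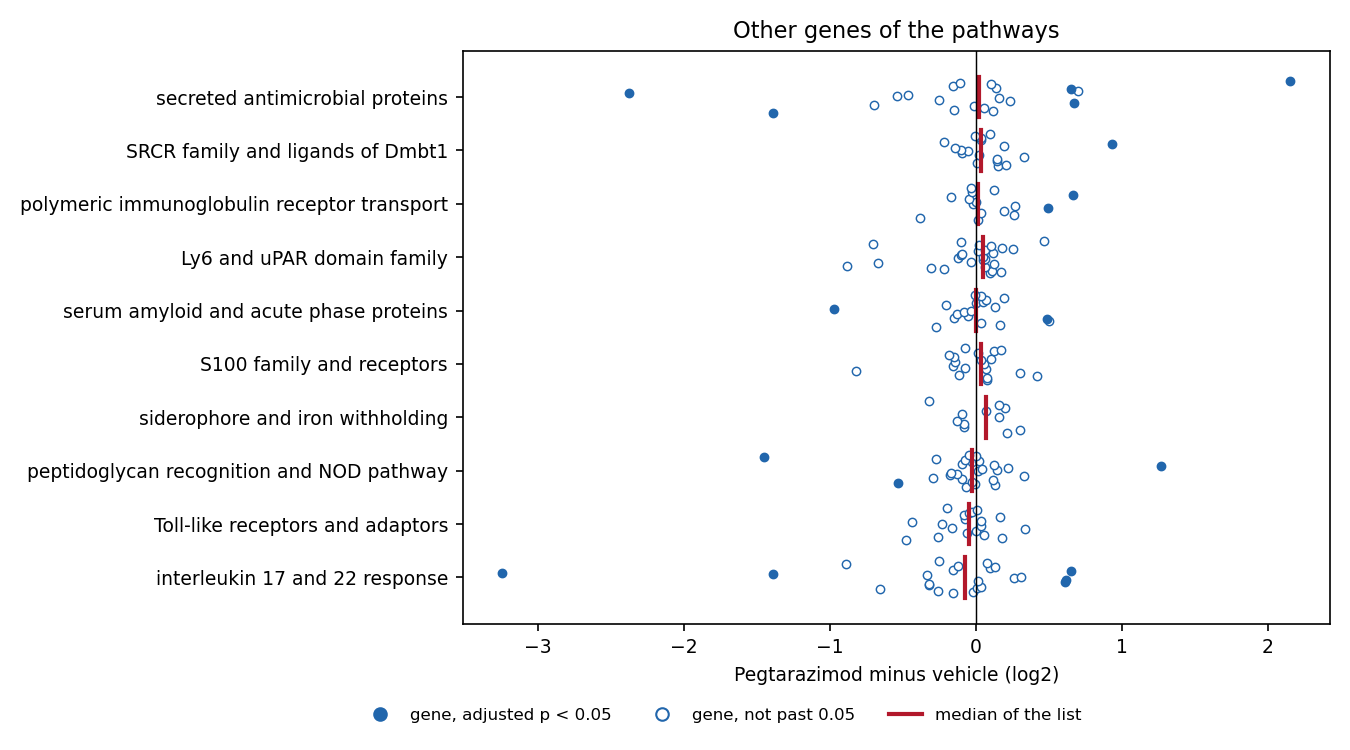
Difference of each gene of the 10 pathway lists between pegtarazimod and vehicle in log2 units, with filled points past an adjusted p of 0.05, open points not past it and a red bar at the median of the list. The medians lie between -0.07 and 0.07, and the points farthest from 0 are Nox1 at -3.24, Pla2g2a at -2.38 and Zg16 at 2.15.

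Markers of epithelial cell types differed between the groups beside these genes. Of the goblet cell markers, 6 of 7 rose, and their mean level was 8.49 to 8.75 in pegtarazimod arrays and 7.50 to 7.89 in vehicle arrays. Of the enterocyte markers, 3 of 8 rose, and the mean level was 9.75 to 10.92 in pegtarazimod arrays and 9.01 to 9.62 in vehicle arrays. Pegtarazimod replicates 1 and 2, at 10.92 and 10.63, stood above pegtarazimod replicates 3 to 5, at 9.75 to 9.88. Fabp1, an enterocyte fatty acid binding protein, was 10.1-fold higher within replicates 1 and 2 and 3.73-fold higher within replicates 3 to 5. It was named after its value was seen and had the largest difference of the 8 markers, 2.47, while 5 did not pass. The smallest difference was that of Slc5a1, 0.29, with 1.67-fold and 1.00-fold in those sets. Of the Paneth cell markers 4 of 6 fell, with mean levels of 6.73 to 8.04 in pegtarazimod arrays and 7.98 to 9.15 in vehicle arrays, and replicates 1 and 2 were the lowest of each group (6.86 and 6.73 with pegtarazimod, 8.17 and 7.98 with vehicle). Of the stem cell markers measured, which left out Olfm4, 3 of 4 fell. Their mean levels were 7.17 to 8.11 in pegtarazimod arrays and 8.84 to 9.14 in vehicle arrays. Here too replicates 1 and 2 were the lowest of each group (7.17 and 7.67 with pegtarazimod, 8.93 and 8.84 with vehicle). Of the 11 epithelial markers, 2 passed, Krt19 at 0.33 and Lgals4 at 0.67, and 6 had an unadjusted p under 0.05 in limma. Lgals4 is thus one of the epithelial markers, Zg16 is one of the goblet markers, and Ang4 and Pla2g2a are among the Paneth markers. The part of these cell types in the values of Dmbt1 and the other defence genes was not tested. In the marker lists for cells outside the epithelium, 0 of 11 macrophage and dendritic and 0 of 7 lymphocyte genes passed in limma. Of the plasma cell genes 0 of 4 passed, and of the fibroblast and endothelial genes 0 of 9. In that order, 2, 1, 0 and 1 had an unadjusted p under 0.05 in limma. The plasma cell genes Sdc1 and Xbp1 were bright, averaging 10.36 and 10.09 over all arrays. Jchain and Mzb1 were under the lower quartile on all 10 arrays, so nothing is read from that list about plasma cells. In bulk RNA, fewer cells of a type and less RNA per cell cannot be told apart.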

How the data were processed

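The authors deposited log2 expression values of 22203 probe sets for 10 arrays, made with oligo and RMA per the submitters' processing notes. Software versions and the build were not given in the sources used here. RMA corrects background, equalises the arrays' distributions and sums probes, so a shift shared by most genes would not show, and low values are compressed. Genes were named from the platform annotation: 19572 probe sets had 1 symbol, 0 had several and 2631 had none, which gave 19505 genes. For the 55 genes with several probe sets the one with the highest mean was kept. Pegtarazimod was compared with vehicle over all genes with limma 3.58.1 in R 4.3.3 (lmFit, eBayes, Benjamini-Hochberg, threshold 0.05). The same fit was also checked on simulated data, and figures were drawn with matplotlib 3.10.9. Array pairs correlated at 0.983 to 0.994 within groups and shared at most 2 identical gene values. Groups and replicate numbers came from the sample titles.

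The 10 genes and the pathway and marker lists were chosen with earlier results of these data known. Named genes were the 10 members, up to 3 past the threshold with the smallest p in each pathway list (or, where none passed, the 1 with the smallest p), and the 5 most similar to Dmbt1 by Pearson r, over all arrays and with group means removed. Alternatives covered normalisation, centring, filters on dim genes (25% and 50%), trended priors, array weights, blocks, probe set averaging, the sets of replicates and leaving out each array.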

Additional observations from a re-analysis of the deposited data

Results flagged for a closer look

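Nod2 in pegtarazimod replicate 3 stood at 4.84, while the other 4 pegtarazimod arrays stood between 5.18 and 5.23. Its gap to the nearest of them was 0.851 of the group's range, above Dixon's 95% critical value of 0.71 for 5 samples. With 20 groups of arrays examined (10 genes in 2 conditions), about 1 in 20 exceeds that value by chance. Leaving out any 1 array kept the Nod2 difference negative, between -0.32 and -0.17, and it did not pass the threshold.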

How the results depend on the processing

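Dmbt1 was past the threshold under all 21 alternatives, with differences of 1.63 to 3.18. Pigr kept its direction (0.27 to 0.43) but not its call under 7 of 21, Lypd8 (0.36 to 0.46) under 6 and Pglyrp1 (-0.81 to -0.45) under 7. Most of these losses came with 1 array left out, and they depended on which array it was. All 4 calls stayed without vehicle replicate 1 or without pegtarazimod replicate 4 or 5. Of the 10 genes, 4 passed, and 1 to 4 passed with 1 array left out. Within replicates 1 and 2, 2 passed (Dmbt1 and Pglyrp1), and within replicates 3 to 5, 3 passed (Dmbt1, Pigr and Lypd8). The 6 other genes gained no call. Saa1 changed sign in 2 of 20 alternatives and S100a8 in 1 of 19. The filter on the dimmest 25% removed Lcn2 and S100a8, and that on the dimmest 50% removed Saa1, Saa3, S100a9 and Nod2 too. Over all genes, 954 passed, against 1606 with a replicate block, 1820 with a block for replicates 1 and 2 against 3 to 5, and 437 (without vehicle replicate 3) to 1245 (without pegtarazimod replicate 4) with 1 array left out. Of the pathway genes 17 passed, against 29 with a replicate block and 29 with the block for the sets. Deviations of same-numbered cultures, which also lie in the same array set, correlated at 0.0993 to 0.310. Pegtarazimod replicates 1 to 4 each correlated best with the vehicle array of the same number. For replicate 1 this was 0.299 against 0.235 for the next, and for replicate 3 it was 0.0993 against 0.0980. Pegtarazimod replicate 5 correlated better with vehicle replicate 3 (0.152) than with vehicle replicate 5 (0.130). The sample titles do not call the numbers pairs, so the main fit left them unpaired, and the counts with a replicate block stand beside it. The causes of these shifts were not tested. Values near the arrays' lower quartile, as for S100a8 and Lcn2, limit what can be said of those genes.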

Other observations

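Aldh1l2, a mitochondrial enzyme of folate metabolism, followed the array sets of Dmbt1 most closely once group means were removed (r = 0.973 over 10 arrays), although its own difference was -0.12 and its correlation over all arrays was 0.370. Sbf2 had 0.943 with group means removed, 0.531 over all arrays and a difference of 0.03. In vehicle arrays both genes were higher in replicates 1 and 2 than in replicates 3 to 5, with Sbf2 at 8.93 and 8.89 against 8.27 to 8.4. In pegtarazimod arrays Sbf2 spanned 0.07 with the sets overlapping.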
